A study of Mus musculus with 72 samples.

Results

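The 10 genes of de novo lipogenesis were followed through the liver, epididymal white adipose tissue (eWAT) and pituitary of male mice on a control or a high fat diet. They are Srebf1, Mlxipl, Acly, Acaca, Acacb, Fasn, Me1, Elovl6, Scd1 and Thrsp, chosen by gene symbol as a pathway and found by Ensembl identifier among the 55416 genes of the count table. All 10 passed the filter on low counts in each of the 3 tissues, where 13787 liver genes, 15964 eWAT genes and 16657 pituitary genes were tested.

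The mice were FVB.129P2 ("sighted FVB") males. Dams of the FED mice ate freely. Dams of the CR20 mice received food reduced by 20% against a paired FED dam, from embryonic day 15 until weaning on postnatal day 21. From 8 weeks of age the offspring were given feed of 10% fat (CTRL) or 45% fat (HFD) for 10 weeks, so the groups were FED-CTRL, FED-HFD, CR20-CTRL and CR20-HFD. Each group held 6 mice, and all 3 tissues of each of the 24 mice were sequenced, which gave 72 libraries. Litters are not given in the sources used here, so littermates may stand in both diets and within a group. The maternal diet was set for the dam, while the p-values below treat the 6 mice of a group as independent. The hour of collection and the feeding state at collection are also not given in them. Liver RNA for sequencing was extracted by a column protocol and the RNA of eWAT and pituitary with another reagent, so tissue and extraction cannot be told apart. Total counts ran from 9842813 to 19928212 in liver, from 11589675 to 22364963 in eWAT and from 18299494 to 27601208 in pituitary, and no pair of libraries of a group held identical counts. Of the marker lists that checked the tissues, the 8 hepatocyte genes summed to 75460 to 117170 CPM (counts scaled to a common library size) in the livers and the 8 pituitary genes to 237267 to 414439 CPM in the pituitaries. The 8 adipocyte genes summed to 10210 to 42588 CPM in eWAT.

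De novo lipogenesis makes fatty acids from carbohydrate. Citrate leaves the mitochondria and is split to acetyl-CoA, acetyl-CoA is carboxylated to malonyl-CoA, and fatty acid synthase joins these units to palmitate with NADPH as the reducing agent, after which palmitate is lengthened and desaturated. In liver the pathway is driven by the transcription factors SREBP-1c, which follows insulin, and ChREBP, which follows glucose. Dietary polyunsaturated fat is known to lower its transcripts.

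Srebf1 (chromosome 11, 60089913 to 60113407, minus strand) encodes SREBP-1, and Mlxipl (chromosome 5, 135118744 to 135168615, plus strand) encodes ChREBP. Acly (chromosome 11, 100367165 to 100440756, minus strand) encodes ATP citrate lyase, which makes cytosolic acetyl-CoA. Acaca (chromosome 11, 84020476 to 84292477, plus strand) encodes acetyl-CoA carboxylase 1, whose malonyl-CoA is built into fatty acids. Acacb (chromosome 5, 114284307 to 114388822, plus strand) encodes acetyl-CoA carboxylase 2, whose malonyl-CoA restrains mitochondrial fatty acid entry. Fasn (chromosome 11, 120696672 to 120715995, minus strand) encodes fatty acid synthase, and Me1 (chromosome 9, 86462646 to 86578104, minus strand) encodes the cytosolic malic enzyme that supplies NADPH. Elovl6 (chromosome 3, 129326004 to 129432144, plus strand) lengthens palmitate to stearate, and Scd1 (chromosome 19, 44382894 to 44399154, minus strand) desaturates stearate to oleate. Thrsp (chromosome 7, 97062139 to 97066937, minus strand) encodes Spot 14, a thyroid hormone responsive protein of lipogenic cells. All 10 are annotated as protein coding, and positions are those of GRCm39.

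Promoters of 2 members are shown because these members stand at the ends of the liver response: Scd1 had the largest fall on HFD, and Mlxipl did not pass the test. Each is the 250 bases before the start of the canonical transcript, 5′ to 3′ on the gene's strand, read from GRCm39. Capitals mark matches on either strand to CACGTG (an E-box), TCACNCCAC (an SREBP site), CCAAT (an NF-Y box) or GGGCGG (a GC box), and none of the matches overlap.
Scd1 promoter, chr19:44396341-44396590, minus strand: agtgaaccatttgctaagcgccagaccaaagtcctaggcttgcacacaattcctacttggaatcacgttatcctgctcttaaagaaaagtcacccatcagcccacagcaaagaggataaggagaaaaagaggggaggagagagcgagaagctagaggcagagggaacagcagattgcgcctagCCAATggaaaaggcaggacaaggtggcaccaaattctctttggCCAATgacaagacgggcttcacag
Mlxipl promoter, chr5:135135505-135135754, plus strand: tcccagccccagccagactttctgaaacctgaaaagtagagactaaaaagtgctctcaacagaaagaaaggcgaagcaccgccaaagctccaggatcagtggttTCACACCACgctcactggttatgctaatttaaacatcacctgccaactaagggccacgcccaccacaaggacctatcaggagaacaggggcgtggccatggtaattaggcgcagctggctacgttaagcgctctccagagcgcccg
The windows of 9 members were searched. The SREBP site letters were found in 2 of them, Mlxipl and Acaca, against 1.12% of the 21757 windows of protein-coding genes. In Mlxipl they lie 146 to 138 bases before the start, and in Acaca 98 to 90 bases before it. NF-Y box letters were present in Scd1, 67 to 63 and 24 to 20 bases before the start, and in 36.5% of all windows. GC box letters were present in Srebf1 and Acly and in 36.3% of all windows, and the E-box letters in Acaca and in 6.26%. No match to any of these letters lay in the windows of 4 members (Acacb, Me1, Elovl6 and Thrsp). A match is a description of letters only.

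The question asked of the liver was whether the HFD changed these genes and whether the diet of the dam changed that response. Over both maternal groups, 9 of the 10 members were lower on HFD than on CTRL, and Mlxipl was the member that did not pass the test. The falls ran from 2.27-fold for Srebf1 to 25.2-fold for Scd1. Differences were tested with edgeR's quasi-likelihood test on 4 group means, and a gene was called if its Benjamini-Hochberg adjusted p-value was not above 0.055 and its log2 fold change (log2FC) was 0.58 or more in size. Of all 13787 liver genes, 0.776% were called lower in the same comparison. The members had a median log2FC of -1.71, while the median of all genes was -0.01. Neither the choice of the genes nor the median is a test of the pathway. In whole tissue, fewer cells of a type and less RNA per cell cannot be told apart.

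**Figure D1:**
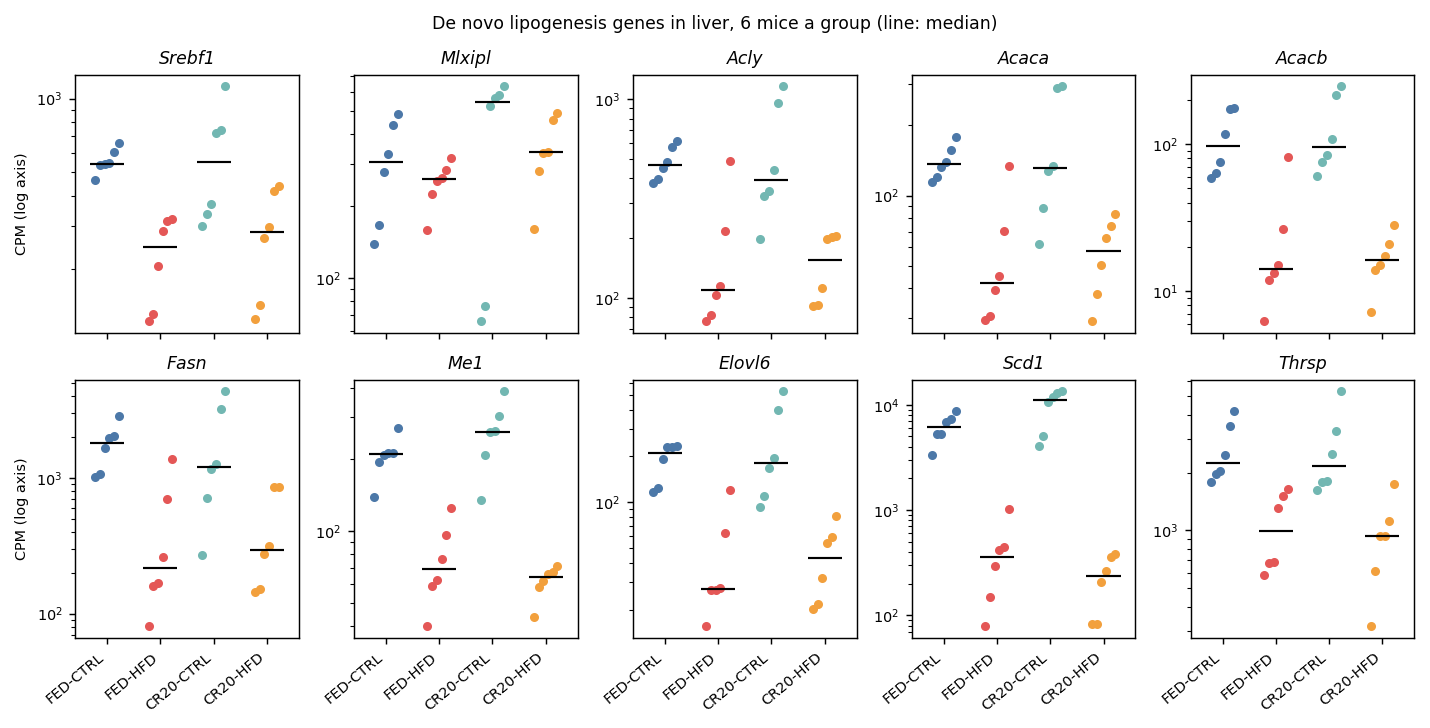
CPM of each of the 10 genes in each liver (log axis), by group, with 6 mice a group and a line at the median. For Scd1 the HFD livers reached at most 1031 CPM and the CTRL livers began at 3326 CPM, while the 4 groups overlapped for Mlxipl.

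The transcription factors differed. Srebf1 ran from 466 to 655 CPM (median 542) in FED-CTRL livers and from 123 to 320 CPM (median 246) in FED-HFD livers. In the offspring of CR20 dams it ran from 302 to 1123 CPM (median 548) on CTRL and from 125 to 438 CPM (median 283) on HFD. All FED-HFD livers were thus below all FED-CTRL livers, while the CR20 groups overlapped. The log2FC over both maternal groups was -1.18 ± 0.24 (SE, 12 mice against 12, adjusted p = 0.00694). Mlxipl had medians of 305 and 259 CPM in FED-CTRL and FED-HFD and of 547 and 336 CPM in CR20-CTRL and CR20-HFD. Its widest group was CR20-CTRL, from 66.2 to 636 CPM, in which mouse 4 (66.2 CPM) and mouse 5 (76.5 CPM) lay under every other liver of the study. The Mlxipl log2FC of -0.27 ± 0.31 was not called (adjusted p = 0.768).

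Acly and Acaca supply the carbon of the pathway, and Acacb, the other acetyl-CoA carboxylase, was read beside them. Acly ran from 378 to 613 CPM (median 468) in FED-CTRL, from 76.6 to 490 (median 109) in FED-HFD, from 198 to 1163 (median 392) in CR20-CTRL and 91.6 to 206 (median 155) in CR20-HFD. Its log2FC over both maternal groups was -1.67 ± 0.31 (adjusted p = 0.00361), a 3.19-fold fall. Acaca had medians of 136, 42.4, 131 and 58.1 CPM in FED-CTRL, FED-HFD, CR20-CTRL and CR20-HFD and fell 2.65-fold (log2FC -1.41 ± 0.27, adjusted p = 0.0046). Acacb, the carboxylase of fatty acid oxidation control, ran from 59.1 to 175 CPM (median 96.7) in FED-CTRL and from 6.25 to 81.2 CPM (median 14.2) in FED-HFD. In the CR20 mice it ran from 60.6 to 248 CPM (median 96.4) on CTRL and from 7.21 to 28.3 CPM (median 16.2) on HFD, with no overlap. The log2FC of Acacb was -2.53 ± 0.36 (adjusted p = 0.00022), a 5.76-fold fall.

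Fasn, the synthase, ran from 1015 to 2843 CPM (median 1814) in FED-CTRL, from 80.7 to 1375 (median 216) in FED-HFD, from 269 to 4325 (median 1210) in CR20-CTRL, and the CR20-HFD livers lay between 143 and 850 (median 294). Both pairs of groups overlapped, through mouse 10 of FED-HFD (1375 CPM) and mouse 5 of CR20-CTRL (269 CPM). Its log2FC over both maternal groups was -2.02 ± 0.46 (adjusted p = 0.0202), with an SE larger than that of any other member. Me1, the NADPH source, had the smallest SE. It ran from 139 to 271 CPM (median 211) in FED-CTRL, from 40.0 to 126 (median 69.6) in FED-HFD, from 135 to 385 (median 262) in CR20-CTRL, and the CR20-HFD livers lay between 43.6 and 71.6 (median 64.1). No HFD liver reached the lowest CTRL liver for Me1, and it fell 3.37-fold (log2FC -1.75 ± 0.17, adjusted p = 1.62e-06).

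Scd1 and Elovl6 modify the product. Scd1 ran from 3326 to 8632 CPM (median 6090) in FED-CTRL, from 79.2 to 1031 (median 355) in FED-HFD, from 4066 to 13354 (median 11166) in CR20-CTRL, and the CR20-HFD livers lay between 82.6 and 384 (median 236). Every HFD liver was below every CTRL liver, and the log2FC over both maternal groups was -4.66 ± 0.38 (adjusted p = 9.73e-08). In CR20-CTRL, mouse 5 had the highest Scd1 (13354 CPM) and the lowest Fasn (269 CPM). Elovl6 ran from 117 to 231 CPM (median 210) in FED-CTRL and from 15.6 to 120 CPM (median 27.2) in FED-HFD, and from 92.6 to 525 CPM (median 180.0) in CR20-CTRL, with 20.1 to 81.8 CPM (median 43.2) in CR20-HFD. Its log2FC was -2.24 ± 0.34 (adjusted p = 0.000446). Thrsp had medians of 2253, 994, 2159 and 935 CPM in FED-CTRL, FED-HFD, CR20-CTRL and CR20-HFD and fell 2.68-fold (log2FC -1.42 ± 0.26, adjusted p = 0.00293).

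The 10 genes together took a median of 1.28% of the counts of a FED-CTRL liver and 0.227% of a FED-HFD liver. In the offspring of CR20 dams these medians were 1.71% and 0.276%. The median SD of the members' log2 CPM was 0.47 in FED-CTRL, 0.93 in FED-HFD, 0.87 in CR20-CTRL and 0.71 in CR20-HFD. The median SD over all liver genes was 0.33, 0.33, 0.48 and 0.34 in the same groups. FED-HFD mouse 10 had the highest level of its group for all 10 genes.

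Taken by maternal group, fewer members passed the test. In the offspring of FED dams 2 members were called lower (Scd1 and Me1), against 0.0798% of all liver genes. In the offspring of CR20 dams 5 were called lower (Scd1, Me1, Acacb, Elovl6 and Acly), against 0.384% of all liver genes. The log2FC of all 10 members was below 0 in both, with a median of -1.4 in FED and -2.0 in CR20 and all-gene medians of -0.00062 and -0.0035. Scd1 fell 15.2-fold in the FED offspring (log2FC -3.93 ± 0.52, adjusted p = 0.00117) and 41.9-fold in the CR20 offspring (log2FC -5.39 ± 0.56, adjusted p = 1.21e-05). Me1 fell 2.69-fold (log2FC -1.43 ± 0.24, adjusted p = 0.0119) and 4.22-fold (log2FC -2.08 ± 0.24, adjusted p = 6.05e-05). Thrsp in the CR20 offspring had an adjusted p of 0.0554, just outside the threshold. Groups did not overlap for Srebf1, Me1, Scd1 and Thrsp in the FED offspring, where 0.457% of all genes were lower without overlap. They did not overlap for Acacb, Me1, Elovl6 and Scd1 in the CR20 offspring, where 0.326% were. The FED count depended on the test and on a mouse. With limma voom with quality weights, the test named by the study, 9 members were called lower in FED and 8 in CR20, and without FED-HFD mouse 10 edgeR called 6 in FED. Without CR20-CTRL mouse 47 or CR20-HFD mouse 7 the CR20 count was 3. The shares of all genes called in these other settings are not given here, so their counts describe the members only.

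**Figure D2:**
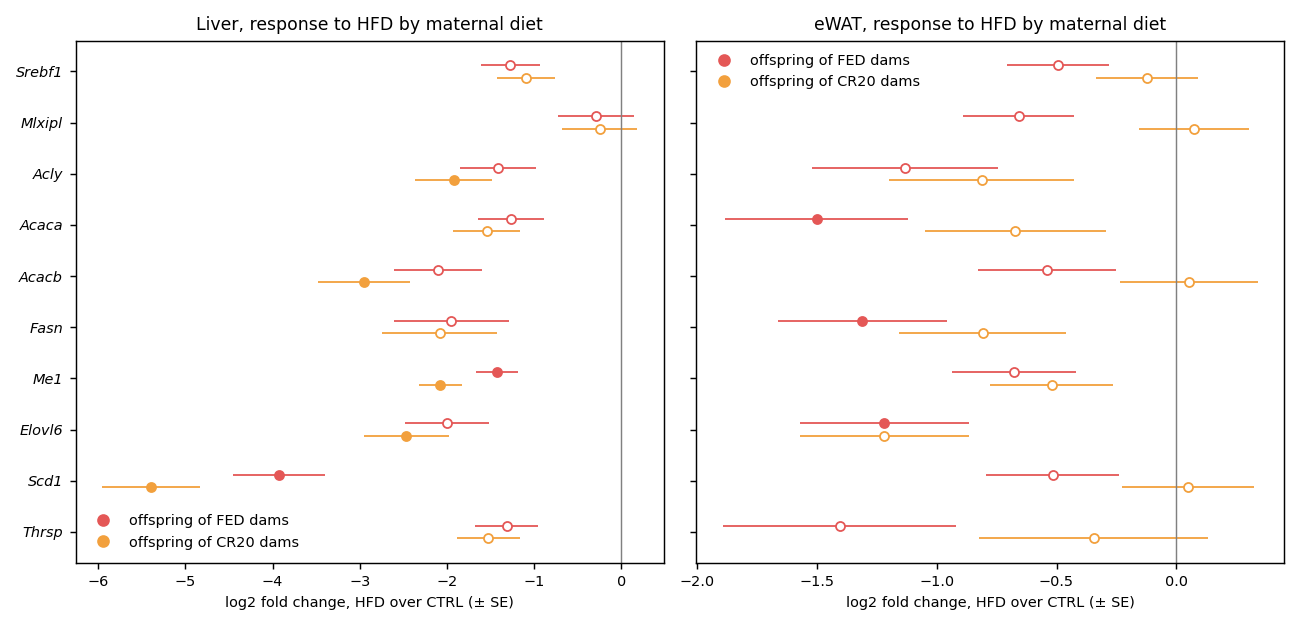
Log2FC of HFD over CTRL (± SE, linear axis; the axes of the panels differ) in liver and in eWAT for the offspring of FED dams and of CR20 dams. Filled points were called and open points were not. In liver all points lie below 0 in both maternal groups, and in eWAT Acaca, Fasn and Elovl6 of the FED offspring are the filled points.

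No difference in the liver response between FED and CR20 offspring was shown. The diet by maternal interaction gave log2 differences from -1.46 to 0.18 for the members, with 0 members and 0 genes called by edgeR, while 242 genes had an unadjusted p under 0.05. Scd1 had the lowest value (-1.46 ± 0.66, unadjusted p = 0.0369, adjusted p = 0.999), and Me1 was at -0.65 ± 0.33 (unadjusted p = 0.0623). On CTRL, CR20 livers had 0 members called against FED livers, with log2FC from 0.03 to 0.65 and 0 of all genes called (299 at an unadjusted p under 0.05). On HFD, 0 members were called, with log2FC from -0.81 to 0.46 and 0 of all genes called (493 at an unadjusted p under 0.05). Scd1 was at 0.65 ± 0.47 on CTRL and -0.81 ± 0.47 on HFD, and Mlxipl at 0.42 ± 0.43 and 0.46 ± 0.43. DESeq2 and limma voom also called 0 members in these 3 comparisons. With 6 mice a group and this spread, these values do not show that the groups were alike.

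Members were compared over the 24 livers after the group means were taken out, as a description with no test. Acly (r = 0.95 with the mean log2 CPM of the other 9), Acaca (0.93), Fasn (0.92), Elovl6 (0.86) and Srebf1 (0.81) had the highest values. Acacb was at 0.76, Scd1 at 0.56, Me1 at 0.50, Mlxipl at 0.28 and Thrsp at 0.15. Without the 2 farthest livers Acly was at 0.92, Scd1 at 0.45 and Thrsp at 0.02. The 13777 other liver genes had a median r of 0.02 with the mean of the 10 members, and 0.0726% of them reached 0.8. The most alike was Pklr, which encodes liver pyruvate kinase, the last step of glycolysis (r = 0.95, and 0.93 without the 2 farthest livers). Slc17a4 (0.88), Lss (0.88), Atp2b2 (0.86), Pgd (0.86), Tmie (0.84), Chrna4 (0.84), Lrrc28 (0.83), Celsr1 (0.83) and Slc2a2 (0.80) followed. Lss encodes lanosterol synthase, Pgd an NADPH-making enzyme of the pentose phosphate pathway and Slc2a2 the glucose transporter GLUT2. The lowest were Nlrp12 (-0.81), Dleu2 (-0.80) and Dmac2l (-0.78). All points share the library, its depth and the liver it came from.

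Genes beside the pathway were read from lists fixed with earlier results of these data known. Over both maternal groups, 0.776% of all liver genes were called lower and the median log2FC of all genes was -0.01. Of 13 genes of glycolysis and glucose entry, 3 were lower in liver in that comparison and the list median was -0.32. They were Slc2a4, the insulin-responsive glucose transporter GLUT4 (log2FC -2.54 ± 0.35, adjusted p = 0.000127), Pklr (-1.39 ± 0.21, adjusted p = 0.000482) and Tkfc, which phosphorylates glyceraldehyde from fructose (-0.77 ± 0.20, adjusted p = 0.0423). Slc2a4 is a low transcript in liver, with medians of 14.8 CPM in FED-CTRL and 2.80 CPM in FED-HFD and of 16.6 CPM in CR20-CTRL and 2.05 CPM in CR20-HFD. Pklr ran from 293 to 413 CPM in FED-CTRL and from 64.1 to 238 CPM in FED-HFD, with no overlap. Of all liver genes, 0.457% were lower without overlap between these groups. Pklr overlapped in the offspring of CR20 dams, from 152 to 480 CPM on CTRL and from 82.8 to 158 CPM on HFD. Of 11 genes that supply citrate, acetyl-CoA and NADPH, 2 were lower, Acss2, which makes acetyl-CoA from acetate (-1.16 ± 0.23, adjusted p = 0.00587), and Pgd (-0.84 ± 0.16, adjusted p = 0.00388).

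The counts that follow stand against the same 0.776% of all liver genes called lower. Further along the pathway, 1 of 12 tested genes of elongation and desaturation was lower, Elovl5, which lengthens polyunsaturated fatty acids (-1.12 ± 0.17, adjusted p = 0.000385). Of 15 tested genes of triglyceride assembly, 2 were lower. They were Gpam, the mitochondrial glycerol phosphate acyltransferase (-1.14 ± 0.23, adjusted p = 0.0066), and Acsl5, an acyl-CoA synthetase (-0.62 ± 0.09, adjusted p = 0.000302). Of 15 genes of cholesterol synthesis, 1 was lower, Sc5d (-0.76 ± 0.17, adjusted p = 0.0161), though the values of all 15 were below 0 with a median of -0.45. None of 19 regulators of lipogenesis, 9 genes of malonyl-CoA turnover, 9 fasting response genes and 13 clock genes was called, and no gene of any of these lists was higher. None of the 8 hepatocyte, 9 tested macrophage and 4 tested adipocyte markers was called in liver either. The regulator with the smallest adjusted p-value had 0.0751.

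In eWAT members were called in the offspring of FED dams and not in those of CR20 dams. In the offspring of FED dams 3 members were lower on HFD: Acaca 2.83-fold (log2FC -1.50 ± 0.38, adjusted p = 0.0143), Fasn 2.48-fold (-1.31 ± 0.35, adjusted p = 0.0195) and Elovl6 2.33-fold (-1.22 ± 0.35, adjusted p = 0.0291). Of all 15964 eWAT genes, 1.58% were called lower. The other 7 members had log2FC from -1.41 (Thrsp, adjusted p = 0.0667) to -0.49 (Srebf1, adjusted p = 0.145), and the median of the 10 was -0.91 against -0.0016 for all genes. Limma voom and DESeq2 each called 6 members, and the shares of all genes that they called are not given here. In the offspring of CR20 dams, edgeR called 0 members, with log2FC from -1.22 (Elovl6, adjusted p = 0.789) to 0.08 (Mlxipl) and a median of -0.43. It also called 0 of all genes there, while 962 had an unadjusted p under 0.05. The interaction called 0 members, with log2 differences from 0.00 to 1.06, and 387 genes in all, so a difference between the maternal groups was not shown for the members. At an unadjusted p under 0.05 stood 3 members in the CR20 offspring and 1 in the interaction, where 2903 of all genes did. Limma voom and DESeq2 also called 0 members in both.

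The levels in eWAT were high. Fasn ran from 9373 to 12122 CPM (median 11049) in FED-CTRL, from 1169 to 7621 (median 3885) in FED-HFD, from 3252 to 16398 (median 9230) in CR20-CTRL, and CR20-HFD lay between 4358 and 7493 (median 5388). Acaca ran from 923 to 1575 CPM (median 1222) in FED-CTRL and from 102 to 756 CPM (median 385) in FED-HFD. Fasn, Acaca, Acly, Me1 and Elovl6 were lower without overlap between the FED groups, and 2.70% of all genes were. Elovl6 had a log2FC of -1.22 in both maternal groups, with medians of 144 and 56.8 CPM in FED-CTRL and FED-HFD and of 121 and 64.8 CPM in CR20-CTRL and CR20-HFD. Over both maternal groups it was the member called (log2FC -1.22 ± 0.25, adjusted p = 0.041), against 0.0877% of all genes called lower. When each of the 24 mice was left out in turn, no member was called in 11 cases. Scd1, the member that fell most in liver, had eWAT medians of 67859 and 56320 CPM in the FED groups and of 60393 and 59613 CPM in the CR20 groups (log2FC over both -0.23 ± 0.19, adjusted p = 0.57). Scd1 alone took a median of 6.59% of the counts of a FED-CTRL eWAT library.

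**Figure D3:**
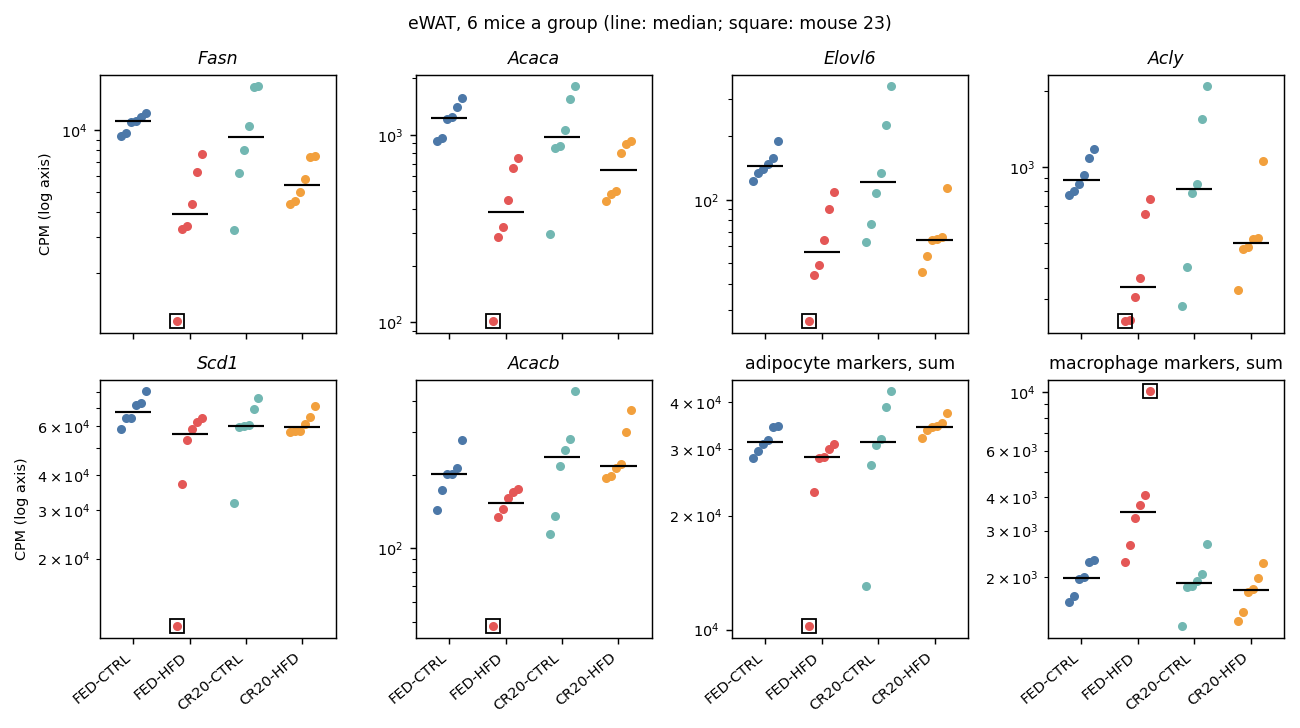
CPM of 6 of the genes and of the summed adipocyte and macrophage markers in each eWAT library (log axes), by group, with a line at the median. The square is FED-HFD mouse 23, the lowest of its group for each of the 6 genes plotted and for the adipocyte sum (10210 CPM) and the highest for the macrophage sum (10025 CPM).

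FED-HFD mouse 23 stood apart in eWAT, with the lowest level of its group for all 10 genes. Its 8 adipocyte markers (Adipoq, Plin1, Lep, Cidec, Fabp4, Cfd, Lipe and Pparg) summed to 10210 CPM against 23066 to 30926 CPM in the other mice of its group. Its 10 macrophage markers (Adgre1, Cd68, Csf1r, Lyz2, Itgam, Cd14, Mrc1, C1qa, C1qb and C1qc) summed to 10025 CPM against 2296 to 4099 CPM. Over the group, 6 of 10 macrophage markers were higher in FED-HFD than in FED-CTRL, where 6.42% of all genes were called higher, and 0 of 8 adipocyte markers were called. Without mouse 23, the macrophage markers called higher were 3, the genes called in the comparison went from 1278 to 656, and the members called were Acaca and Fasn. Elovl6 then had an adjusted p of 0.0808. CR20-CTRL mouse 5 was the lowest of its group for 9 members, all but Srebf1, and for the adipocyte markers (13048 CPM against 27265 to 42588 CPM in the others). Without it, 7 members were called lower in the FED offspring, 5 over both maternal groups and 0 in the CR20 offspring. The shares of all genes called without mouse 5 are not given here. Of the other marker lists in eWAT, 1 of 5 tested hepatocyte genes (Apoa1) was called higher in FED-HFD. Apoa1 had medians of 0.193 CPM in FED-CTRL and 0.739 CPM in FED-HFD, where its highest library was at 110 CPM. The 8 hepatocyte genes summed to medians of 168 CPM in FED-CTRL and 68.4 CPM in FED-HFD, with FED-HFD mouse 10 at 808 CPM. In eWAT 0 of 3 tested pituitary genes were called, and the 10 epididymis and testis genes failed the filter on low counts. The latter summed to 135 CPM in CR20-CTRL mouse 4, 53.0 CPM in another mouse of that group and 26.9 CPM in CR20-HFD mouse 6. The part of these marker levels in the results was not tested.

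Between the HFD groups, Acacb was the member called, higher in CR20-HFD than in FED-HFD (log2FC 0.84 ± 0.29, adjusted p = 0.0511), against 2.45% of all genes called higher. It ran from 193 to 367 CPM (median 218) in CR20-HFD and from 47.9 to 175 CPM (median 153) in FED-HFD, without overlap, and 2.50% of all genes were higher without overlap. All 10 members had log2FC above 0, from 0.09 to 1.07, with a median of 0.44, and Mlxipl had an adjusted p of 0.0573. Without mouse 23 Elovl6 was at -0.06. In the same comparison 7 of 10 macrophage markers were lower in CR20-HFD, where 7.29% of all genes were called lower, and Cfd was the adipocyte marker called (1.49 ± 0.43 higher, adjusted p = 0.0226). Without mouse 23 no member was called. On CTRL, edgeR, limma voom and DESeq2 called 0 members between the maternal groups, with log2FC from -0.20 to 0.25 and 0 members at an unadjusted p under 0.05.

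In the eWAT of FED offspring, glycolysis and supply genes fell beside the members. Slc2a4 was lower on HFD (log2FC -0.93 ± 0.26, adjusted p = 0.0249), as was Pdha1, a subunit of pyruvate dehydrogenase (-0.60 ± 0.16, adjusted p = 0.0147). Tkt, transketolase (-1.15 ± 0.31, adjusted p = 0.0205), and Slc25a1, the mitochondrial citrate carrier (-0.75 ± 0.22, adjusted p = 0.0286), were lower among 11 supply genes. Gpat3 (-0.73 ± 0.23, adjusted p = 0.0409) and Lpin1 (-0.69 ± 0.22, adjusted p = 0.0441) of triglyceride assembly and the thyroid hormone receptor Thra (-0.59 ± 0.09, adjusted p = 0.00297) were lower too. Of these lists, without mouse 23 1 gene of the glycolysis list was called lower and 0 of the supply, triglyceride and regulator lists. Pdk4, which blocks pyruvate dehydrogenase and marks fasting, was higher (1.71 ± 0.25, adjusted p = 0.00212), and it was higher over both maternal groups (1.31 ± 0.18, adjusted p = 0.00114). Of 14 clock genes 5 were lower and 1 higher in the FED offspring, where 1.58% of all genes were called lower and 6.42% higher, and without mouse 23 the counts were 3 and 0. Among the lower genes were Nr1d1 (-0.81 ± 0.18, adjusted p = 0.00658) and Hlf (-0.92 ± 0.22, adjusted p = 0.00903).

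Other list genes rose in the eWAT of FED offspring. Cpt1a, which imports fatty acids into mitochondria and is restrained by malonyl-CoA, was higher (0.62 ± 0.14, adjusted p = 0.00769). Elovl3, of fatty acid elongation, was called higher as well (1.70 ± 0.55, adjusted p = 0.0487), but at levels near the floor. It had medians of 0.238 CPM in FED-CTRL and 0.833 CPM in FED-HFD, and the ranges of these groups overlapped. Without mouse 23 no gene of the elongation list or of the malonyl-CoA turnover list that holds Cpt1a was called.

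The pituitary served as the third tissue. The 10 genes took a median of 0.0985% of the counts of a FED-CTRL pituitary. No member was called by edgeR in any of the 6 comparisons there, and the smallest adjusted p-value of a member was 0.28. Between 0 and 2 members had an unadjusted p under 0.05 in each, as did 1038 to 2887 of the 16657 genes. Limma voom and DESeq2 also called 0 members. The log2FC of HFD over CTRL ran from -0.22 to 0.29 in the FED offspring and from -0.29 to 0.16 in the CR20 offspring. Acly had medians of 256 and 214 CPM in FED-CTRL and FED-HFD and Fasn of 381 and 310 CPM. FED-HFD mouse 10 was the highest of its group for Fasn (534 CPM) and Thrsp (90.2 CPM), and its adipocyte markers summed to 183 CPM against at most 32.8 CPM in any other pituitary.

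**Figure D4:**
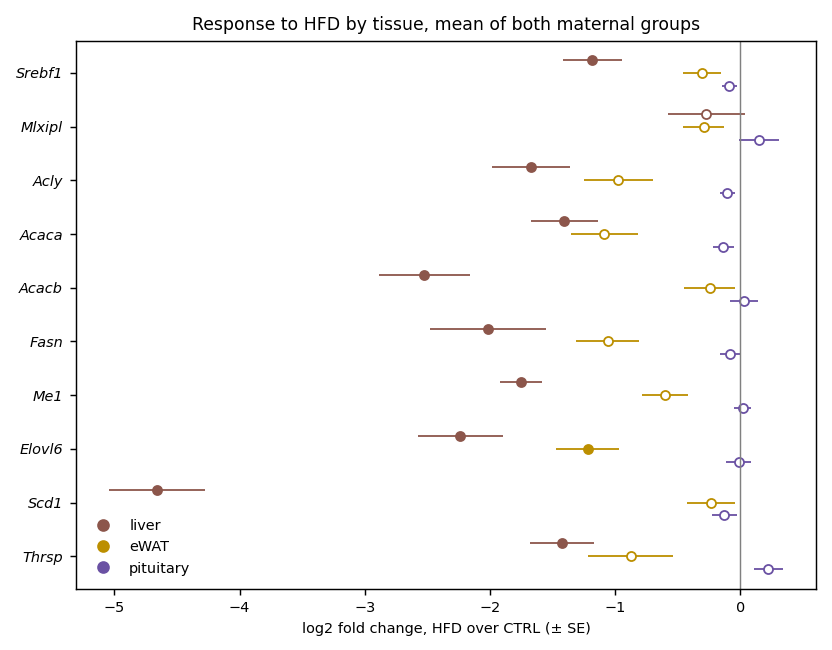
Log2FC of HFD over CTRL (± SE), averaged over both maternal groups, for each gene in liver, eWAT and pituitary. Filled points were called, open points were not: 9 in liver, Elovl6 in eWAT and none in pituitary are filled.

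Whether the response differed between tissues was tested on all 72 libraries with 12 group means (19210 genes). The fall on HFD was larger in liver than in eWAT for 4 members, where 0.776% of all genes were called in that direction. The difference in log2FC, liver minus eWAT, was -4.43 ± 0.37 for Scd1 (adjusted p = 7.27e-14), -2.29 ± 0.37 for Acacb (adjusted p = 4.96e-05), -1.16 ± 0.22 for Me1 (adjusted p = 0.00117) and -0.89 ± 0.25 for Srebf1 (adjusted p = 0.0448). For Elovl6 (-1.03 ± 0.37, adjusted p = 0.162), Fasn (-0.97 ± 0.45, adjusted p = 0.351), Acly, Thrsp, Acaca and Mlxipl it was not called. Against the pituitary the liver fell more for 9 members, all but Mlxipl, where 0.328% of all genes were called in that direction. Those differences ran from -1.13 ± 0.25 for Srebf1 (adjusted p = 0.0083) to -4.56 ± 0.37 for Scd1 (adjusted p = 2.5e-14). Between eWAT and pituitary 0 members were called, with differences from -1.23 (Elovl6, adjusted p = 0.233) to -0.13 (Scd1), and 6 genes were called in all. There 6 members had an unadjusted p under 0.05, as did 1520 of the 19210 genes. Limma voom called 3 members, and the share of all genes that it called is not given here.

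The tissues also differed in level. All 72 libraries were put on 1 scale with TMM factors for this, which differs from the scale within a tissue that the CPM above are on. Over the 4 groups, 7 members differed between liver and eWAT, against 66.1% of all genes. Scd1 was lower in liver, by a log2 difference of -2.30 ± 0.26 on CTRL (4.93-fold, adjusted p = 3.6e-12) and of -6.73 ± 0.32 on HFD (107-fold, adjusted p = 1.39e-29). Since its diet response differed between the tissues, the average over the diets (-4.52 ± 0.20, adjusted p = 3.81e-31) describes neither diet. Acacb was likewise lower in liver on HFD (-2.39 ± 0.27, adjusted p = 2.87e-12), while on CTRL it was at -0.10 ± 0.25 (adjusted p = 0.742). Averaged over the diets, Acaca was 4.97-fold lower in liver (-2.31 ± 0.17, adjusted p = 1e-19) and Fasn 4.8-fold (-2.26 ± 0.24, adjusted p = 1.12e-13), and both were called on each diet. Mlxipl was 4.55-fold higher in liver (2.19 ± 0.17, adjusted p = 2.93e-19) and Thrsp 2.97-fold (1.57 ± 0.19, adjusted p = 3.5e-11), with both called on each diet as well. Elovl6 was higher in liver on CTRL (1.25 ± 0.26, adjusted p = 1.79e-05) and at 0.22 ± 0.26 on HFD (adjusted p = 0.444).

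These levels depend on the scale. With library totals alone in place of the TMM factors, the median log2 difference of all genes between liver and eWAT moved from -0.22 to -0.94. Elovl6 then was at 0.51 ± 0.26 on CTRL (adjusted p = 0.0645) and at -0.50 ± 0.26 on HFD (adjusted p = 0.0722), so that its direction on HFD turned and it was called on neither diet. Averaged over the diets, Srebf1 was at 0.19 ± 0.12 with TMM (adjusted p = 0.137) and at -0.54 ± 0.12 with library totals (adjusted p = 3.46e-05, under the minimum change for a call). Me1 and Acly were called lower in liver with library totals (-1.26 and -1.20). With TMM, Me1 (-0.52, adjusted p = 1.96e-05) and Acly (-0.47, adjusted p = 0.0138) were under the minimum change for a call. On HFD both were called lower with TMM (-1.10 and -0.82). Scd1, Fasn, Acaca and Acacb stayed lower and Mlxipl and Thrsp higher, though Thrsp on HFD was no longer called (0.57 ± 0.26, adjusted p = 0.0376). With TMM all 10 members were higher in liver than in pituitary, against 76.5% of genes called in either direction, and with library totals 8 were called, all but Acacb (0.23) and Acly (0.35). All 10 were higher in eWAT than in pituitary on both scales, against 70.3% of genes called with TMM. Most genes were thus called between tissues.

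**Figure D5:**
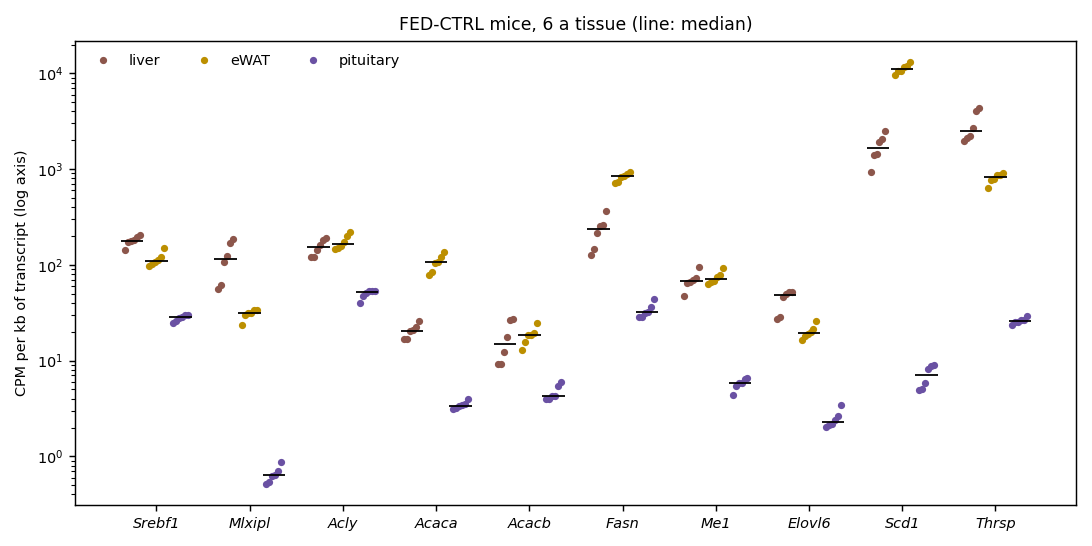
CPM per kb of canonical transcript, on the TMM scale of all 72 libraries (log axis), of each gene in FED-CTRL mice, by tissue, with 6 mice a tissue and a line at the median. Scd1 is the highest gene in eWAT (median 11163), Thrsp in liver (2475) and Acly in pituitary (52.3).

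On the scale of all 72 libraries, per kb of transcript, the order of the genes in FED-CTRL livers was Thrsp (median 2475 CPM per kb), Scd1 (1675), Fasn (236), Srebf1 (179), Acly (153), Mlxipl (116), Me1 (68.3), Elovl6 (47.8), Acaca (20.6) and Acacb (15.0). Neighbours in this order overlapped over the 6 mice except Scd1 with Fasn and Elovl6 with Acaca. In eWAT the order was Scd1 (11163), Fasn (838), Thrsp (823), Acly (166), Srebf1 (110), Acaca (106), Me1 (70.5), Mlxipl (31.7), Elovl6 (19.3) and Acacb (18.3). There the neighbours that did not overlap were Scd1 with Fasn, Thrsp with Acly and Me1 with Mlxipl. In pituitary Acly (52.3), Fasn (31.9), Srebf1 (28.3) and Thrsp (25.8) stood above the other 6 members, and Mlxipl was lowest (0.636). Acaca thus stood above Acacb in liver by medians of 20.6 against 15.0, with overlapping ranges, and in eWAT by 106 against 18.3.

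Genes on the opposite strand overlap 8 members, all but Fasn and Thrsp, and the strand setting of the counting is not given in the sources used here. The counts of these partners reached at most 1214 in a library (Rai1, beside Srebf1), 432 (Tada2a, beside Acaca), 242 (Gm35986, beside Elovl6), 188 (Odad4, beside Acly), 111 (Rwdd2a, beside Me1), 28 (Gm43500, beside Mlxipl) and 23 (Gm13784, beside Acacb). The partner of Scd1, Gm59215, has no count among the genes analysed here.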

How the data were processed

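RNA of the pituitary, eWAT and liver of 24 mice was sequenced in 72 libraries. The authors trimmed the reads with Trimmomatic, aligned them with STAR to GRCm39 (release 104) and counted them per gene with featureCounts (Subread), and deposited whole-number counts without normalization. Tool versions and the strand setting are not given in the sources used here, and the methods name both a total RNA and an mRNA stranded kit. Names came from GENCODE M39 by Ensembl identifier (54749 of 55416 genes; 667 had no match), and groups and mice from the labels, which leave the diet time open.

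The counts of each tissue were fitted in R 4.3.3 with edgeR 4.0.16 (filterByExpr, TMM, estimateDisp, glmQLFit and glmQLFTest, 4 group means), and tissues were compared in a fit of all 72 libraries. p-values are two-sided with Benjamini-Hochberg adjustment over all genes tested, and the SE is the absolute log2FC divided by the square root of F. CPM uses TMM library sizes within each tissue, or over all 72 libraries for levels between tissues and per kb, and a prior count of 2 enters log2 CPM. The contrast over both maternal groups averages the FED and CR20 contrasts. Alternatives were limma 3.58.1 voom with quality weights, DESeq2 1.42.0, its size factors, no filter, only the groups compared, other call rules, the range of animal numbers as a covariate, a mouse block, each mouse left out and, chosen after seeing the data, library totals without TMM between tissues. The tests were also run on simulated counts that had the same spread setting for every gene and no outlying mice. That spread was not matched to the members.

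The 3 tissues of a mouse share its number, so numbers pair tissues. Deviations of the same mouse from its group means had a median r of 0.06 between liver and eWAT, 0.07 between liver and pituitary and 0.04 between eWAT and pituitary. Within a tissue the groups hold different mice. Members and lists were chosen with earlier results of these data known. Named genes are the 10 members, called genes of the lists (at most 3 per list and tissue, by p over both maternal groups), the marker genes and the liver genes most and least like the members.

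Scatter between animals and counting error limit precision: 3 counts equal 0.109 to 0.305 CPM over the libraries. Pituitary and liver comparisons without calls are given as ranges. Some results that were obtained are not reported here.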

Additional observations from a re-analysis of the deposited data

Results flagged for a closer look

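Of 120 sets of 6 mice (10 genes, 3 tissues, 4 groups), 8 held a mouse whose gap to the nearest other was past the critical value of Dixon's test (at which chance flags about 1 in 20). A count of 8 in 120 is close to that rate, and flags of 1 library over several genes are not independent. In eWAT, FED-HFD mouse 23 was far below its group for Srebf1 (177 CPM), Mlxipl (29.2 CPM), Acacb (47.9 CPM) and Scd1 (11403 CPM), and its adipocyte markers summed to 10210 CPM. In the same tissue, CR20-CTRL mouse 5 was low for Scd1 (31648 CPM, the next mouse at 59869 CPM) and CR20-HFD mouse 46 was high for Me1 (318 CPM). In pituitary, FED-HFD mouse 10 was high for Fasn (534 CPM, the next at 345 CPM) and Thrsp (90.2 CPM, the next at 39.8 CPM), and its adipocyte markers summed to 183 CPM. The part of the marker levels in these values was not tested.

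The response to HFD differed between tissues by a test of the difference itself (edgeR on 72 libraries). Liver minus eWAT, the difference in log2FC was -4.43 for Scd1, -2.29 for Acacb, -1.16 for Me1 and -0.89 for Srebf1. Liver minus pituitary, it was -4.56 for Scd1, -2.58 for Acacb, -2.25 for Elovl6, -1.97 for Fasn, -1.80 for Me1, -1.67 for Thrsp, -1.60 for Acly, -1.31 for Acaca and -1.13 for Srebf1. Liver RNA was extracted by another protocol than that of the other tissues, and the part of extraction in these differences was not tested.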

How the results depend on the processing

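Counts of members called moved with the test and with single mice left out. The shares of all genes called are not given beside these counts, so they describe the members only. With limma voom with quality weights, 9 members were called in the liver of FED offspring, 8 in that of CR20 offspring, 6 in the eWAT of FED offspring, 2 between the HFD groups in eWAT, 5 in eWAT over both maternal groups and 3 for the difference between eWAT and pituitary. DESeq2 called 5 in the liver of FED offspring, 6 in the eWAT of FED offspring, 2 between the HFD groups and 5 in eWAT over both maternal groups. With only the groups compared, 3 were called in the liver of CR20 offspring, 5 in the eWAT of FED offspring and 0 between the HFD groups in eWAT. The call between those HFD groups was also lost (0 members) without the filter, at an absolute log2FC of 1 and at an adjusted p under 0.05. Leaving out each mouse gave 2 to 6 calls in the liver of FED offspring, 3 to 7 in that of CR20 offspring and 9 to 9 over both maternal groups. In eWAT it gave 2 to 7 in FED offspring, 0 to 2 between the HFD groups and 0 to 5 over both maternal groups. The liver count of 7 was without FED-HFD mouse 10. In eWAT of FED offspring the count was 2 without FED-CTRL mouse 14 or FED-HFD mouse 12, 13 or 23, and 5 without FED-HFD mouse 10 or 40 or CR20-CTRL mouse 49. Over both maternal groups it was 3 without FED-HFD mouse 10, 23 or 40. Elsewhere it gave 0 to 0. The cause was not tested.

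The replicate block (mouse) in the 72-library fit gave the same counts, 4 between liver and eWAT, 9 between liver and pituitary and 0 between eWAT and pituitary for the response, and 7, 10 and 10 for the level, and it changed no call. No paired analysis was possible because the groups within a tissue hold different mice. Some gene values near 0 changed sign in the eWAT response of CR20 offspring: with voom, Acacb was at -0.047 and Scd1 at -0.066. Without 1 mouse, Acacb ran from -0.091 to 0.32, Mlxipl from -0.032 to 0.23 and Scd1 from -0.078 to 0.14, and Elovl6 between the HFD groups ran from -0.11 to 0.32. The Mlxipl difference between liver and eWAT was -0.21 with voom and -0.00272 without the filter. With library totals in place of TMM, an alternative chosen after seeing the data, Srebf1 between liver and eWAT turned to -0.54. Of the other gene values, 879 kept their direction and side of the threshold over the settings, 50 passed it and 14 lost it; with a mouse left out, 1732 kept both, 38 passed and 46 lost the threshold. The lowest group median of a member in liver was 14.2 CPM (Acacb).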
